A study of Mus musculus with 225 samples.

Results

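Cartilage is built from a small set of secreted proteins, and 10 of their genes were followed here in single cells of the mouse forelimb: *Col2a1*, *Col9a1*, *Col9a2*, *Col9a3*, *Col11a1*, *Col11a2*, *Acan*, *Matn1*, *Matn4* and *Hapln1*. They were chosen by the place of their proteins in cartilage, with earlier results of these data known. All 10 were found among the 23165 genes of the count table, and 9 of the 10, all but *Matn1*, in the normalized table. Every gene outside the normalized table had reads in at most 19 retained cells, and *Matn1* had reads in 4.

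The cells came from E12.5 forelimbs of embryos heterozygous for Hoxd11::GFP on a mixed C57Bl6CBAF1 background, where GFP inserted into *Hoxd11* inactivates that allele. Autopod (the future hand) and zeugopod (the future forearm) were dissected and pooled over littermates. Cells within the brightest 20% for GFP were captured on Fluidigm C1 chips with ERCC spike-ins. Autopod cells were sequenced in runs NXT0072 and NXT0143 and zeugopod cells in NXT0142 and NXT0143, so that only NXT0143 held both tissues.

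Of 225 captured cells, 26 were not retained. The retained cells were 59 autopod cells in NXT0072, 17 autopod cells in NXT0143, 58 zeugopod cells in NXT0142 and 65 zeugopod cells in NXT0143. Median reads on genes were 3076199 and 2641867 for the autopod in NXT0072 and NXT0143, and 4048526 and 2659813 for the zeugopod in NXT0142 and NXT0143. Median genes with a read were 3528, 3965, 4283.5 and 3745 in the same order. Detection meant 5 or more reads of a gene in a cell. Levels are given as CPM per kb, which is counts per 1000000 counts on genes divided by gene length in kb. Reads without UMIs are not molecules, and the 95% intervals given below cover counting error only, not differences between embryos.

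Tissue labels were checked with genes of known position. *Hoxd13* was detected in 65 of 76 autopod cells (85.5%) and 1 zeugopod cell (0.813%), and *Hoxa13* in 45 and 3. *Shox2* was detected in 0 of 76 autopod cells (limit 3.95%) and 73 zeugopod cells (59.3%), and *Hoxa11* in 5 and 34. Within the autopod, *Hoxd13* was detected in 91.5% of cells of NXT0072 and 64.7% of cells of NXT0143, so the autopod cells of the runs differed in a positional gene as well as in run. Muscle genes were detected in 2 autopod and 15 zeugopod cells, tendon genes in 8 and 61, epithelial genes in 2 and 17, endothelial genes in 1 and 4, and macrophage genes in 3 and 18. Of 4 blood genes only *Hba-x* was in the count table, detected in 1 autopod cell and 0 zeugopod cells (limit 3 cells). The 15 zeugopod cells with a muscle gene all had *Pax7* and no other gene of the muscle list. Of the 18 zeugopod cells with a macrophage gene, 17 had *Csf1r* and 1 had *Cx3cr1*, without *Aif1* at 5 reads. Among the 61 with a tendon gene, 41 had *Tnc*, which is also in the condensation list used below, 35 had *Scx* and 2 had *Tnmd*. Epithelial genes in the zeugopod were *Epcam* in 9 cells, *Krt14* in 5, *Cdh1* in 3 and *Krt8* in 1.

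Cartilage of the limb forms from mesenchymal condensations, whose cells switch on a matrix program under the transcription factor SOX9 and its partners SOX5 and SOX6. Fibrils of type II collagen with type XI collagen at their core give the tissue tensile strength, and type IX collagen sits on the fibril surface. Aggrecan, held to hyaluronan by link protein, fills the mesh with water, and matrilins bridge fibrils and proteoglycans.

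The genes split into common and rare ones. In the zeugopod *Col2a1* and *Col11a1* were found in most cells, while in the pooled autopod cells *Col9a1* led with *Col2a1* and *Col11a1* close behind. *Col9a1* led in NXT0072 only, and the 17 autopod cells of NXT0143 had *Col2a1* and *Col11a1* first, as the zeugopod did. *Acan*, *Col11a2*, *Hapln1*, *Matn1* and *Matn4* stayed below 20% of cells in each tissue. The lowest, median and highest share over the 10 genes were 0%, 19.7% and 63.2% in the autopod and 3.25%, 18.3% and 91.1% in the zeugopod.

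**Figure D1:**
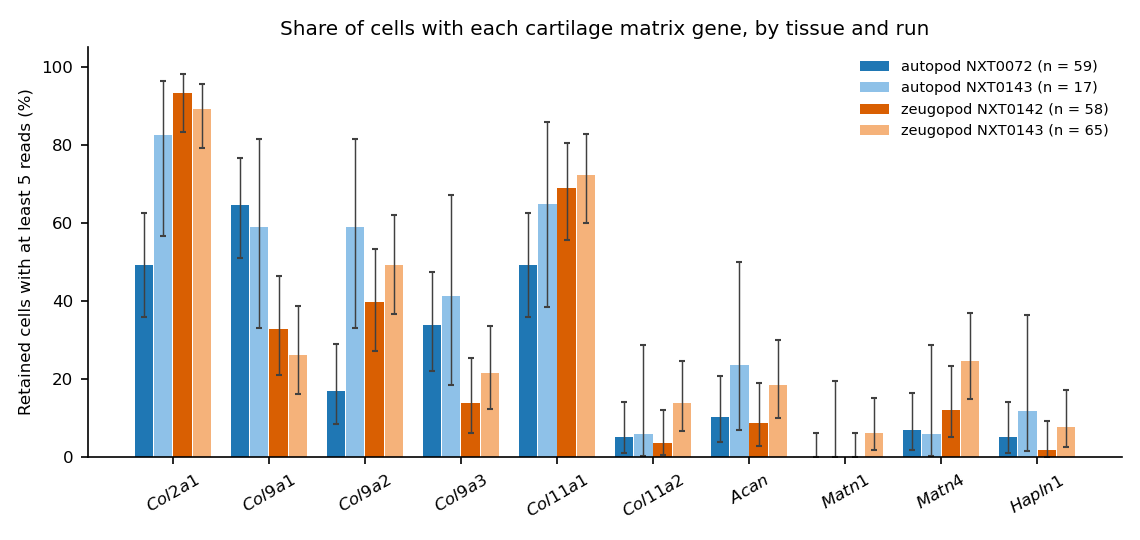
Percent of retained cells with at least 5 reads of each gene (y axis) in the 4 groups of tissue and run, with 95% Clopper-Pearson intervals. *Col2a1* was found in 49.2% of autopod NXT0072 cells and over 80% of the other groups, and *Col9a1* in 64.4% and 58.8% of the autopod groups against 32.8% and 26.2% of the zeugopod groups.

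*Col2a1* encodes the single chain of type II collagen, the main fibril of cartilage. It was detected in 43 of 76 autopod cells (56.6%, interval 44.7 to 67.9%) and in all but 11 zeugopod cells (91.1%, 84.6 to 95.5%). By run the shares were 49.2% (NXT0072) and 82.4% (NXT0143) in the autopod and 93.1% (NXT0142) and 89.2% (NXT0143) in the zeugopod. Autopod cells of NXT0072 had the lowest share. After thinning every cell to 500000 reads, which left out 4 autopod and 4 zeugopod cells, *Col2a1* was found in 50% of autopod and 69.7% of zeugopod cells. The zeugopod share thus depended on depth more than the autopod share did.

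In cells with *Col2a1*, its level ran from 0.459 to 3048 CPM per kb in the autopod (median 56.5) and from 0.198 to 1159 in the zeugopod (median 18.4). By run the medians were 10.3 (NXT0072) and 82.8 (NXT0143) in the autopod and 15.3 (NXT0142) and 28.4 (NXT0143) in the zeugopod. Each of the 4 groups spanned more than 3 powers of 10 and the groups overlapped, so *Col2a1* cells held both traces and very high amounts. In the autopod, 36.9% of all *Col2a1* reads lay in 1 cell and 75.3% in 5 cells, against 6.84% and 28.9% in the zeugopod.

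*Col11a1* encodes a chain of type XI collagen, which forms the core of the thin fibrils. It was detected in 40 of 76 autopod cells (52.6%, 40.8 to 64.2%) and 87 zeugopod cells (70.7%, 61.9 to 78.6%), and after thinning in 41.7% and 62.2%. By run the shares were 49.2% and 64.7% in autopod NXT0072 and NXT0143 and 69% and 72.3% in zeugopod NXT0142 and NXT0143. Median *Col11a1* levels were 9.03 CPM per kb in autopod cells (0.184 to 512) and 7.35 in zeugopod cells (0.169 to 436). By run they were 9.79 and 6.25 in autopod NXT0072 and NXT0143 and 5.87 and 15.5 in zeugopod NXT0142 and NXT0143, the last being the highest group. In cells with both genes, *Col2a1* exceeded *Col11a1* per kb in 21 of 26 autopod and 59 of 82 zeugopod cells, with median log2 ratios of 3.52 and 1.46.

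*Col11a2* encodes another type XI chain and was rare. It was detected in 4 of 76 autopod cells (5.26%) and 11 zeugopod cells (8.94%), 9 of the 11 in NXT0143. Thinned cells had it in 5.56% of the autopod and 6.72% of the zeugopod. Its median level in cells with it was 8.12 CPM per kb in the autopod (5.65 to 10.1) and 6.09 in the zeugopod (0.555 to 174). All of these cells had *Col2a1*, and 4 of 4 autopod and 10 of 11 zeugopod cells had *Col11a1*.

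Type IX collagen is a trimer of 3 different chains, the products of *Col9a1*, *Col9a2* and *Col9a3*, so a cell that makes the protein needs all 3. The chains were nevertheless found in different cells and in different proportions in each tissue. Zeugopod cells most often had *Col9a2* in both runs. Autopod cells most often had *Col9a1* in NXT0072, while in NXT0143 10 of 17 autopod cells had *Col9a1* and 10 had *Col9a2*.

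*Col9a1* was detected in 48 of 76 autopod cells (63.2%, 51.3 to 73.9%) and 36 zeugopod cells (29.3%, 21.4 to 38.1%). The shares by run were 64.4% and 58.8% in autopod NXT0072 and NXT0143 and 32.8% and 26.2% in zeugopod NXT0142 and NXT0143, so both autopod groups lay above both zeugopod groups. After thinning *Col9a1* was found in 55.6% and 25.2% of cells. Median levels in cells with *Col9a1* were close, 49.3 CPM per kb in the autopod (0.500 to 3605) and 66.6 in the zeugopod (0.303 to 662). The tissues thus differed in how many cells had *Col9a1* and little in the median amount per cell.

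*Col9a2* ran the other way in the pooled cells, with 20 of 76 autopod cells (26.3%, 16.9 to 37.7%) and 55 zeugopod cells (44.7%, 35.7 to 53.9%). The low group was autopod NXT0072, where 16.9% of cells had it, against 58.8% of autopod cells in NXT0143 and 39.7% and 49.2% of zeugopod cells in NXT0142 and NXT0143. Thinned shares of *Col9a2* were 25% and 42.9%, little changed by depth. Median *Col9a2* levels in cells with it were 131 CPM per kb in the autopod (1.34 to 586) and 159 in the zeugopod (0.554 to 648). By run they were 42.3 and 136 in autopod NXT0072 and NXT0143 and 204 and 110.7 in zeugopod NXT0142 and NXT0143, so autopod NXT0072 was low in level as in share.

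*Col9a3* was detected in 27 of 76 autopod cells (35.5%, 24.9 to 47.3%) and 22 zeugopod cells (17.9%, 11.6 to 25.8%), and after thinning in 29.2% and 12.6%. By run the shares were 33.9% and 41.2% in autopod NXT0072 and NXT0143 and 13.8% and 21.5% in zeugopod NXT0142 and NXT0143. Median *Col9a3* levels were 33.5 CPM per kb in autopod cells (0.441 to 1711) and 22.2 in zeugopod cells (0.288 to 616), with ranges that overlapped widely. Medians by run were 32.6 and 33.5 in autopod NXT0072 and NXT0143 and 12.9 and 32.8 in zeugopod NXT0142 and NXT0143. Only zeugopod NXT0142 thus stood lower.

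All 3 type IX chains were detected together in 13 of the 53 autopod cells with any of them (24.5%) and in 17 of 65 zeugopod cells (26.2%). *Col9a1* was the only chain in 21 autopod and 8 zeugopod cells, and *Col9a2* the only chain in 2 autopod and 24 zeugopod cells. *Col9a1* with *Col9a3* but without *Col9a2* was seen in 11 autopod cells, all from NXT0072, and in 0 zeugopod cells (limit 3 cells). In cells with both, *Col9a1* exceeded *Col9a2* per kb in 12 of 16 autopod cells and 8 of 28 zeugopod cells. That ordering also moved with run, since *Col9a1* was the higher in 9 of 9 cells of autopod NXT0072 and 3 of 7 cells of autopod NXT0143.

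Promoter windows of 250 bases before and 50 after the gene start were available from RefSeq (GRCm38.p6) for 8 of the 10 genes, 10 windows in all, and not for *Col2a1* and *Col9a3*. They were scanned on both strands for SOX-type strings, the 8 letter strings AACAAA or AACAAT or ATCAAA or ATCAAT or TACAAA or TACAAT or TTCAAA or TTCAAT. A string was present in 3 of the 10 windows, and in 56.4% of all 32851 windows of 300 bases. A match is a description of letters and not evidence of binding. The 3 windows with a string (capitals) are shown, with the second start of *Col9a1*, which lies 17593 bases inside the gene and has none. They lie at chr1:24177360-24177659 and chr1:24194953-24195252 (*Col9a1*), chr4:121039316-121039615 (*Col9a2*) and chr13:89540386-89540685 (*Hapln1*), all on the plus strand. By the GENCODE gene bounds, the starts used for *Hapln1* and *Col9a2* also lay inside the gene, by 840 and 181 bases. Counts were per gene, so reads from the 2 starts of *Col9a1* could not be told apart.
Col9a1 first start: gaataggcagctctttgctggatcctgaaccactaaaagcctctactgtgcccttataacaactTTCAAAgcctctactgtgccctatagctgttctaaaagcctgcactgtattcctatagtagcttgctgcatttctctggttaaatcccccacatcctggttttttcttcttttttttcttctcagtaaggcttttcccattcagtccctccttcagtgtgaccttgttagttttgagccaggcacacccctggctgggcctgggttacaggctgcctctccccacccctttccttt
Col9a1 second start: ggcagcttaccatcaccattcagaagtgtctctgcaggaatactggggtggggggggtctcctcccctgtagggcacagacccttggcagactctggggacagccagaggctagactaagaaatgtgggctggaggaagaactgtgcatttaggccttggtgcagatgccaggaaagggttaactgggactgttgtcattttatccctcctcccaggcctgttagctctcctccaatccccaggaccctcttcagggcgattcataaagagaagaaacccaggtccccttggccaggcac
Col9a2: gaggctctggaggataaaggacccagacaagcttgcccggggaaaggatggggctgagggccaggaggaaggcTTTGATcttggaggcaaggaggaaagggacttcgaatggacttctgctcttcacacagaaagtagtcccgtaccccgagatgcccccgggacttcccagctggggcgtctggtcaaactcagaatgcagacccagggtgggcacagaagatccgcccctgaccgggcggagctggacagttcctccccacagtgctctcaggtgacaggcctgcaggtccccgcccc
Hapln1: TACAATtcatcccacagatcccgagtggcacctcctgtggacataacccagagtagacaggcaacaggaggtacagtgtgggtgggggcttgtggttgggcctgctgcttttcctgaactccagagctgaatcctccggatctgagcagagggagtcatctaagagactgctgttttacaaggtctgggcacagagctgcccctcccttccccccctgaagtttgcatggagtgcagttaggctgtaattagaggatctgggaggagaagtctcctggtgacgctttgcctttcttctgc

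Aggrecan, the large proteoglycan encoded by *Acan*, was found in few cells. It was detected in 10 of 76 autopod cells (13.2%, 6.49 to 22.9%) and 17 zeugopod cells (13.8%, 8.26 to 21.2%), and after thinning in 4.17% and 8.4%. In both tissues the share was higher in NXT0143, 23.5% of autopod and 18.5% of zeugopod cells, than in NXT0072 (10.2%) and NXT0142 (8.62%). *Acan* levels had medians of 0.404 CPM per kb in autopod cells (0.108 to 49.2) and 9.96 in zeugopod cells (0.205 to 313). By run the medians were 0.317 (NXT0072) and 0.576 (NXT0143) in the autopod and 0.498 (NXT0142) and 12.6 (NXT0143) in the zeugopod, so only zeugopod cells of NXT0143 stood higher. A single autopod cell held 90.8% of the autopod *Acan* reads. *Col2a1* was present in 8 of 10 autopod and 17 of 17 zeugopod cells with *Acan*, and *Col11a1* in 9 and 16.

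*Hapln1* encodes link protein, which locks aggrecan onto hyaluronan. It was detected in 5 of 76 autopod cells (6.58%) and 6 zeugopod cells (4.88%), and after thinning in 6.94% and 4.20%. Its medians in cells with it were 58.3 CPM per kb in the autopod (24.9 to 198) and 144 in the zeugopod (2.46 to 413). Every cell with *Hapln1* also had *Col2a1*, *Col9a1*, *Col9a3* and *Col11a1*, whereas 2 of 5 autopod and 5 of 6 zeugopod cells had *Acan*.

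Of the matrilins, *Matn1* was seen in few zeugopod cells, and *Matn4* in a smaller share of autopod than of zeugopod cells. *Matn4*, the matrilin most widely expressed outside cartilage, was detected in 5 of 76 autopod cells (6.58%, 2.17 to 14.7%) and 23 zeugopod cells (18.7%, 12.2 to 26.7%), and after thinning in 4.17% and 16%. Zeugopod cells of NXT0143 had it most often (24.6%), those of NXT0142 in 12.1%, and autopod cells in 6.78% and 5.88% of NXT0072 and NXT0143. Median *Matn4* levels were 3.48 CPM per kb in the autopod (0.511 to 92.3) and 91.1 in the zeugopod (0.334 to 557), and 149 in zeugopod cells of NXT0143 against 2.51 in those of NXT0142.

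*Matn1* encodes matrilin 1, first known as cartilage matrix protein. It was detected in 0 of 76 autopod cells (limit 3.95%) and 4 zeugopod cells (3.25%, 0.893 to 8.12%), all 4 from NXT0143. Their levels ran from 5.60 to 620 CPM per kb (median 66.4), and 84.2% of the reads lay in the highest cell. Of these 4 cells, 3 had all 10 genes and 1 had 9, lacking *Col11a2*. No other retained cell had more than 8 of the 10 genes. For *Matn1* the autopod limit lay above the zeugopod share, so the tissues could not be told apart.

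**Figure D2:**
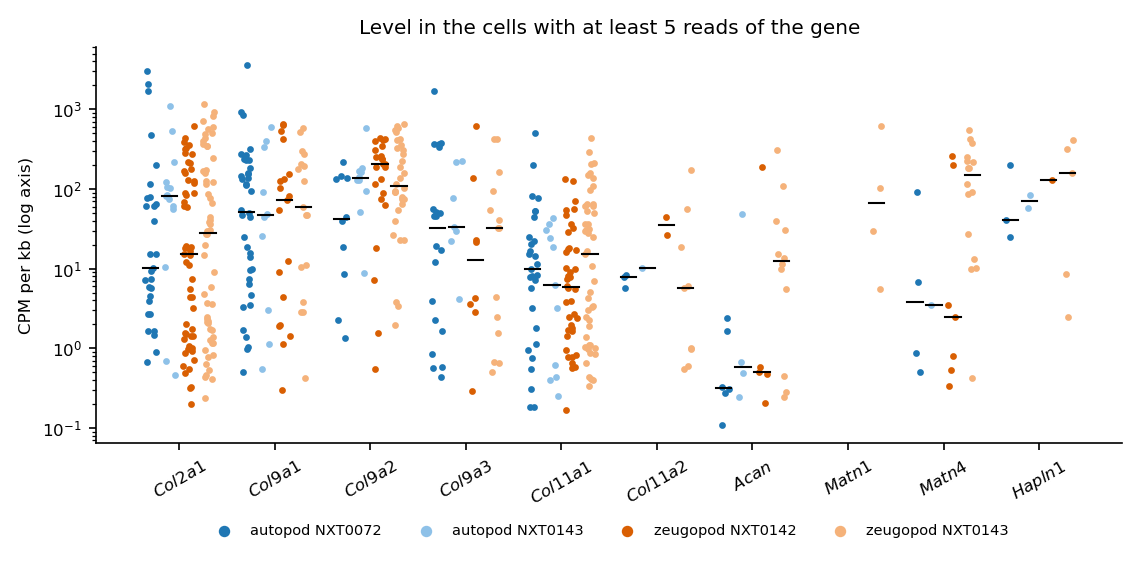
CPM per kb (log axis) of each gene in each cell with at least 5 reads of it, by tissue and run, with black lines at the medians. Median *Col9a2* levels were 131 CPM per kb in autopod and 159 in zeugopod cells, median *Acan* levels 0.404 and 9.96, and each of these genes spanned more than 2 powers of 10.

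Counting how many of the 10 genes a cell had gave nearly the same picture in the pooled cells of both tissues, though the autopod runs differed. The median was 2 in each, and 35 of 76 autopod cells (46.1%, 34.5 to 57.9%) and 58 zeugopod cells (47.2%, 38.1 to 56.4%) had at least 3. By run these shares were 40.7% (NXT0072) and 64.7% (NXT0143) in the autopod and 46.6% (NXT0142) and 47.7% (NXT0143) in the zeugopod. At least 5 genes were found in 16 autopod (21.1%) and 27 zeugopod cells (22%). Run by run, that share was 15.3% (NXT0072) and 41.2% (NXT0143) in the autopod and 19% (NXT0142) and 24.6% (NXT0143) in the zeugopod. None was found in 8 autopod cells, all from NXT0072, and in 6 zeugopod cells. Cells with at least 3 of the genes did not have more genes detected in general, with medians of 3414 against 3805 in the autopod and 3920.5 against 4115 in the zeugopod. Their median reads on genes were 2.86e+06 against 2.48e+06 in the autopod and 3.24e+06 against 3.12e+06 in the zeugopod. Within each autopod run their median reads were also the higher, and within each zeugopod run the lower. Whether read depth went with the number of genes was not tested.

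**Figure D3:**
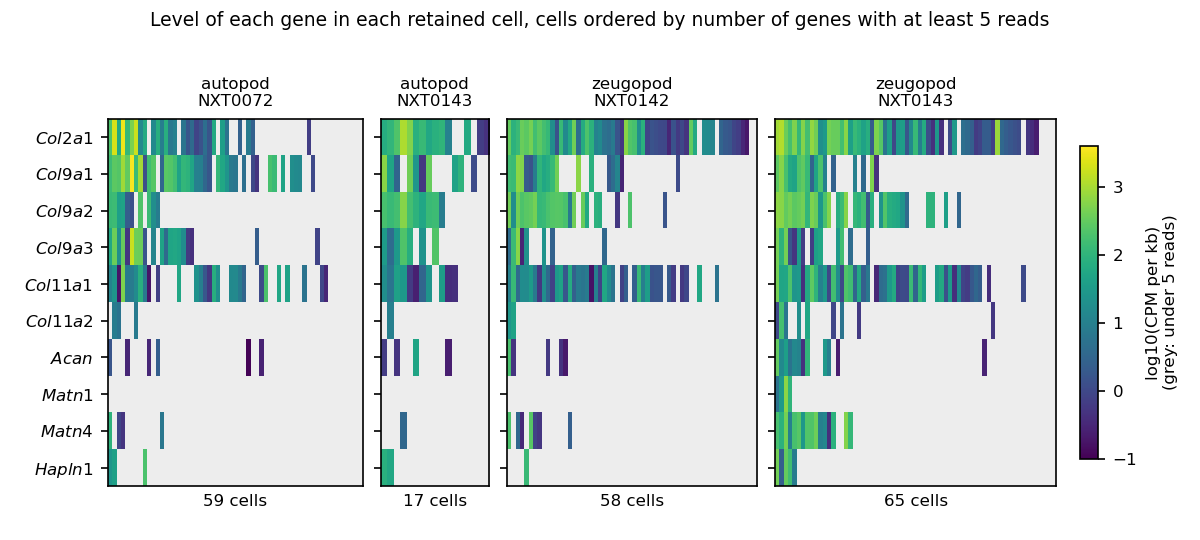
log10 of CPM per kb of each gene (rows) in each retained cell (columns), ordered within tissue and run by the number of genes with at least 5 reads, with grey below 5 reads. Cells with all 10 genes (3 cells) lay in zeugopod NXT0143, and many cells to the right had *Col2a1* or *Col9a1* without the rest.

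Some cells had at least 5 reads of only 1 of the genes. All cells were of 1 stage, so the order described is an order of shares and not of time. Exactly 1 of the 10 genes was found at 5 reads in 20 autopod and 24 zeugopod cells. In the autopod the single gene was *Col9a1* in 9 cells, *Col11a1* in 6, *Col2a1* in 4 and *Col9a3* in 1. In the zeugopod it was *Col2a1* in 21 cells and *Col11a1* in 3. *Col9a2*, *Col11a2*, *Acan*, *Matn1*, *Matn4* and *Hapln1* were never the single gene at 5 reads in either tissue. Of these cells, 10 of 20 in the autopod and 6 of 24 in the zeugopod held 1 to 4 reads of another of the 10 genes. With no read of any other, *Col9a1* remained in 4 of its 9 autopod cells, *Col11a1* in 4 of 6, *Col2a1* in 2 of 4 and *Col9a3* in 0 of 1, and in the zeugopod *Col2a1* in 17 of 21 and *Col11a1* in 1 of 3.

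By run, *Col9a1* was the single gene in 7 of 15 such cells of autopod NXT0072 and 2 of 5 of autopod NXT0143, and *Col11a1* in 6 and 0. *Col2a1* was the single gene in 1 and 3 of these autopod cells, in 12 of 14 zeugopod cells of NXT0142 and in 9 of 10 of NXT0143. *Col2a1* was thus the commonest single gene in both zeugopod runs, and the 5 cells of autopod NXT0143 were too few to compare the autopod runs.

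Ordered by the number of cells, the autopod genes were *Col9a1*, *Col2a1*, *Col11a1*, *Col9a3*, *Col9a2*, *Acan*, *Matn4* with *Hapln1*, *Col11a2* and *Matn1*. The zeugopod order was *Col2a1*, *Col11a1*, *Col9a2*, *Col9a1*, *Matn4*, *Col9a3*, *Acan*, *Col11a2*, *Hapln1* and *Matn1*. For each pair of genes, cells with the rarer gene were checked for the commoner. Over all pairs the commoner was present in 681 of 770 zeugopod cases (88.4%), against a mean share of the commoner gene among all cells of 59.8%. In the autopod it was present in 322 of 431 (74.7%), against 51.5%.

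The pairs were then split by whether *Col2a1* was the commoner gene. In zeugopod pairs where *Col2a1* was the commoner gene, 97.3% of cases held it, against its share of 91.1% in all cells. In the other zeugopod pairs the commoner gene was present in 83.9% of cases, against 43.7%. A share of 91.1% left little room above it, so the excess could not be compared between these kinds of pair. In the autopod the values were 82% against 56.6% in pairs with *Col2a1* as the commoner gene and 72.2% against 49.8% in the others.

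Among zeugopod cells with rarer genes, *Col2a1* was seldom missing. Each of the 36 cells with *Col9a1*, 23 with *Matn4*, 22 with *Col9a3*, 17 with *Acan*, 11 with *Col11a2*, 6 with *Hapln1* and 4 with *Matn1* had *Col2a1*, as did 82 of 87 with *Col11a1* and 53 of 55 with *Col9a2*. *Col11a1*, found in 70.7% of zeugopod cells, was present in all cells with *Col9a3*, *Matn4*, *Hapln1* or *Matn1* and in 33 of 36 with *Col9a1*.

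In the autopod *Col9a1* and *Col2a1* each occurred without the other. Both were found in 31 cells, *Col9a1* without *Col2a1* in 17 and *Col2a1* without *Col9a1* in 12. *Col9a2* was nearly confined to *Col2a1* cells (19 of 20), as was *Col9a3* (24 of 27). Of 40 autopod cells with *Col11a1*, 26 had *Col2a1* (65%, against 56.6% of all autopod cells) and 27 had *Col9a1* (67.5%, against 63.2%). By run, *Col2a1* was present in 16 of 29 *Col11a1* cells of NXT0072 (55.2%) and 10 of 11 of NXT0143 (90.9%). *Acan* was found with *Col11a1* in 9 of 10 autopod cells and with *Col9a3* in 4 of 10.

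**Figure D4:**
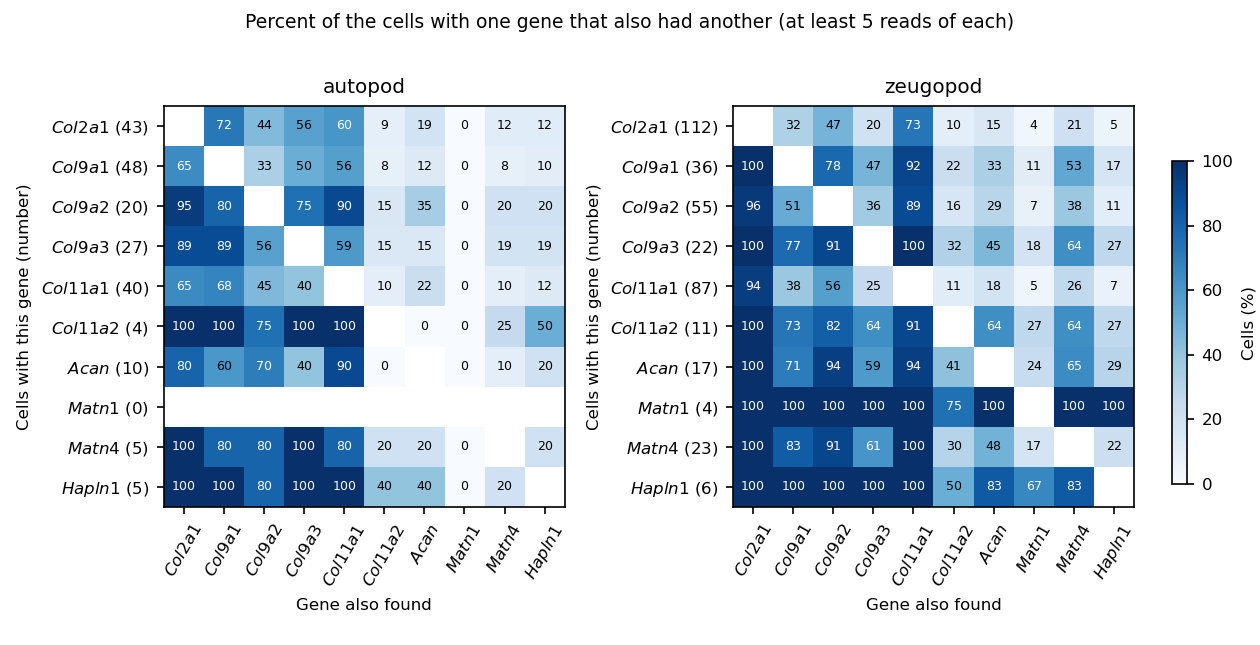
Percent of cells with the gene of the row (number of cells in brackets) that also had the gene of the column, for autopod and zeugopod cells at 5 or more reads of each. The *Col2a1* column was at or above 94.3% throughout the zeugopod, while in the autopod 64.6% of *Col9a1* cells had *Col2a1*.

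The sets of genes found in single cells were many, 33 in the autopod and 36 in the zeugopod. The commonest zeugopod sets were *Col2a1* with *Col11a1* (26 cells), *Col2a1* alone (21) and *Col2a1* with *Col9a2* and *Col11a1* (12), and each occurred in both runs. The commonest autopod sets were *Col9a1* alone (9 cells), none (8), *Col11a1* alone (6) and *Col2a1* with *Col9a1* and *Col9a3* (6). The last 3 of these autopod sets were seen in NXT0072 only.

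Cells with more of the genes also had higher levels of them. In the zeugopod the median *Col2a1* level was 1.77 CPM per kb in the 21 cells where it was alone, 1.53 in 33 cells with 2 genes, 36.2 in 31 cells with 3 or 4 and 281 in 27 cells with 5 or more. In the autopod it rose from 0.684 in 4 cells to 6.59, 9.47 and 161 in the same steps. *Col9a1* in the autopod differed, with a median of 18.6 CPM per kb in the 9 cells where it was alone, 7.39 with 2 genes, 94.1 with 3 or 4 and 230 with 5 or more. *Col11a1* had a median of 25 in the 6 autopod cells where it was alone and 9.89 in the 16 with 5 or more genes, so autopod cells with *Col11a1* alone held it at no lower level.

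Taken as 1 sum, the 10 genes made up a median of 358 CPM in autopod cells (0 to 30784) and 627 CPM in zeugopod cells (0.358 to 21598). Medians by run were 239 (NXT0072) and 1117 (NXT0143) in the autopod and 480 (NXT0142) and 787 (NXT0143) in the zeugopod. The autopod median was thus the lower in pooled cells and the higher within NXT0143. The highest cell, an autopod cell of NXT0072, had 3.08% of its reads on the 10 genes. More than 1000 CPM was reached by 27 autopod cells (35.5%) and 50 zeugopod cells (40.7%), with 28.8% and 58.8% in autopod NXT0072 and NXT0143 and 39.7% and 41.5% in zeugopod NXT0142 and NXT0143.

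The tissues were next compared over all retained cells as autopod minus zeugopod differences of mean log2(normalized value + 1), where the normalized value is scaled by spike-ins and gene length. Genes were tested where 10% or more of autopod or of zeugopod cells had 5 reads, and of these 8986 genes 3.45% were at least 2-fold higher in the autopod and 7.62% at least 2-fold higher in the zeugopod. Of the 7 members tested, 2 (*Col9a1* and *Col9a3*) were higher in the autopod and 2 (*Col2a1* and *Col9a2*) higher in the zeugopod. The members were chosen with earlier results of these data known, so these counts cannot be read as an excess over all genes. The median of all 8986 genes was -0.07, and moved with scaling to -0.18 for CPM, -0.10 with a pseudocount of 0.1 and -0.02 with a pseudocount of 10.

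Over all retained cells the log2 differences were 2.29 for *Col9a1* and 1.15 for *Col9a3*, and -1.54 for *Col2a1*, -1.66 for *Col9a2*, -0.89 for *Col11a1*, -0.91 for *Matn4* and -0.30 for *Acan*. In these pooled cells *Col9a2* thus pointed the other way from *Col9a1* and *Col9a3*, which did not hold within NXT0143. *Col11a2* and *Hapln1*, below the filter, differed by -0.18 and 0.12.

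Within NXT0143 the autopod and zeugopod cells shared a run, at 17 and 65 cells. There 12.9% of genes were at least 2-fold higher in the autopod and 6.29% in the zeugopod, with 2 members (*Col9a1*, 2.30, and *Col9a3*, 1.69) and 1 member (*Matn4*, -1.58) among them, and the median of all genes was 0.10. *Matn4* reached 10% of cells in the zeugopod only, and so was tested through the tissue where it was high. *Col2a1* and *Col9a2* changed sign, to 0.80 and 0.98. *Col11a1* (-0.91) and *Acan* (-0.25) were close to their pooled values.

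Where the autopod came from NXT0072 and the zeugopod from NXT0142, tissue and run cannot be told apart. Here 3.98% of genes were at least 2-fold higher in the autopod and 15% in the zeugopod, the median of all genes was -0.20, and 2 members lay on each side. The differences were 2.11 for *Col9a1* and 1.15 for *Col9a3*, and -2.27 for *Col2a1*, -2.18 for *Col9a2*, -0.71 for *Col11a1*, -0.21 for *Matn4* and -0.08 for *Acan*. *Col9a1* and *Col9a3* were therefore higher in the autopod in all 3 comparisons, and *Col2a1* and *Col9a2* in the zeugopod only where NXT0072 supplied autopod cells.

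**Figure D5:**
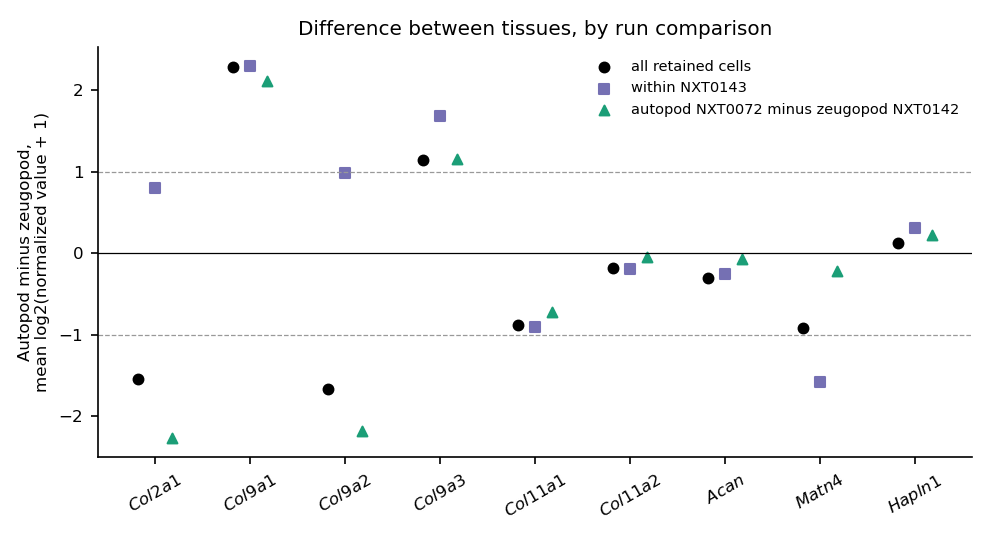
Autopod minus zeugopod difference of mean log2(normalized value + 1) for the 9 genes of the normalized table in 3 comparisons of cells, with dashed lines at 2-fold. *Col9a1* stayed near 2.29 in each comparison, while *Col2a1* went from -2.27 to 0.80 and *Col9a2* from -2.18 to 0.98.

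The change of sign came from the autopod. Between its runs, NXT0143 minus NXT0072, *Col9a2* differed by 3.78 and *Col2a1* by 2.94 on the log2 scale, *Col9a3* by 0.95 and *Col9a1* by -0.24, with a median over all 8986 genes of 0.06. The size factors had been centred per batch, so a shift shared by all genes between runs was not measured. Between zeugopod runs, NXT0143 minus NXT0142, the largest difference was 1.30 for *Matn4*, with -0.14 for *Col2a1*, 0.62 for *Col9a2* and -0.43 for *Col9a1*, and a median over all genes of -0.23. The autopod cells of NXT0143 also had *Hoxd13* less often (64.7% against 91.5%), and whether position or run went with the collagens was not tested.

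Rank correlations across cells of 1 tissue describe how far the levels rose together. They share library preparation, depth and run. Over the 36 pairs that could be formed in 76 autopod cells the lowest, median and highest were 0.05, 0.31 and 0.65, and over 45 pairs in the zeugopod 0.19, 0.39 and 0.62. Over pooled runs the strongest pairs were *Col2a1* with *Col9a3* (0.65) and with *Col9a2* (0.63) in the autopod. In the zeugopod they were *Col2a1* with *Col9a2* (0.62) and *Col9a1* with *Col9a2* (0.59). The strongest pair differed by run, being *Col2a1* with *Col9a3* (0.66) in autopod NXT0072 and *Col9a2* with *Col9a3* (0.85) in autopod NXT0143. It was *Col2a1* with *Col9a2* (0.66) in zeugopod NXT0142 and *Col9a1* with *Acan* (0.70) in zeugopod NXT0143. *Col2a1* with *Col9a2* stood at 0.48 in autopod NXT0072. *Col9a1* with *Col11a1* stood at 0.10 in the autopod and 0.41 in the zeugopod. By run this pair was at 0.05 in autopod NXT0072 (59 cells), 0.36 in autopod NXT0143 (17 cells), 0.45 in zeugopod NXT0142 and 0.39 in zeugopod NXT0143, so autopod NXT0072 was the low group.

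*Sox9*, *Sox5* and *Sox6* encode the transcription factors that drive many of these genes. All 43 autopod cells with *Col2a1* had *Sox9*, which was found in 72 of 76 autopod cells, whereas in the zeugopod 73 cells had both and 39 had *Col2a1* without *Sox9* at 5 reads. In the zeugopod, where 91.1% of all cells had *Col2a1*, all 49 cells with *Sox5* and all 41 with *Sox6* had it. In the autopod, where 56.6% did, it was found in 27 of 41 cells with *Sox5* (65.9%) and 28 of 37 with *Sox6* (75.7%). *Col9a1*, *Col9a2* and *Matn4* were more closely tied to *Sox9* than *Col2a1* was in the zeugopod, where 64.2% of all cells had *Sox9*. It was found in 34 of 36 zeugopod cells with *Col9a1*, 50 of 55 with *Col9a2* and 23 of 23 with *Matn4*.

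To find genes that varied as the cartilage genes did, every other gene found in enough cells of both tissues (7167 genes) was ranked by its median rank correlation with 6 of the members, averaged over autopod NXT0072, zeugopod NXT0142 and zeugopod NXT0143. The members used were *Col2a1*, *Col9a1*, *Col9a2*, *Col9a3*, *Col11a1* and *Acan*, and over all genes the median was -0.04 and the 95th percentile 0.08. The 10 highest were *Fibin* (0.46), *Sox6* (0.45), *Wwp2* (0.44), *Vcan* (0.44), *Sorbs2* (0.43), *Sox9* (0.43), *Sox5* (0.42), *Mia* (0.42), *Iqcf3* (0.41) and *Fam101a* (0.38). The 5 lowest were *Tuba1a* (-0.35), *Marcks* (-0.33), *Crabp1* (-0.30), *Adgrl2* (-0.30) and *Zfhx3* (-0.29). All 3 SOX genes were thus among the 10 highest of 7167.

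Related lists placed the 10 genes beside other programs, with the 3 genes found in most cells named for each. Counts of genes at least 2-fold higher over all retained cells are to be read against 3.45% of all genes in the autopod and 7.62% in the zeugopod, and within NXT0143 against 12.9% and 6.29%.

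Of other cartilage matrix genes, *Col27a1* was detected in 28 autopod and 63 zeugopod cells, *Mia* in 10 and 23 and *Lect1* in 7 and 21. All 33 *Mia* and 28 *Lect1* cells had *Col2a1*, as did 18 of 28 autopod (64.3%) and 59 of 63 zeugopod cells (93.7%) with *Col27a1*. In all cells the share with *Col2a1* was 56.6% in the autopod and 91.1% in the zeugopod. Of 4 tested genes of that list, 0 were higher in the autopod and 1 in the zeugopod, *Lect1* at -1.02, and within NXT0143 0 and 0, with *Lect1* at -0.77. *Lect1* too reached 10% of cells in the zeugopod only. Of chondrogenic regulators, *Trps1* was detected in 77.6% of autopod and 86.2% of zeugopod cells, *Sox9* in 94.7% and 64.2% and *Wwp2* in 48.7% and 45.5%, and 1 of 8 tested was higher in the autopod (*Sox9*, 3.14) and 1 in the zeugopod (*Trps1*, -1.26). Within NXT0143 5 of the 8 regulators were higher in the autopod and 0 in the zeugopod, with *Sox9* at 3.18, *Sox6* at 2.38, *Sox5* at 2.24 and *Wwp2* at 1.49 among them. *Trps1* was at 0.28 and not among them. *Sox9* thus shared its direction with *Col9a1* and *Col9a3* in both comparisons.

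Genes for making chondroitin sulfate, the sugar chains of aggrecan, were led by *Chsy1* in 48 autopod and 94 zeugopod cells, *Papss1* in 28 and 50 and *Slc26a2* in 19 and 24, with 1 of 7 tested higher in each tissue and 0 in each within NXT0143. Condensation genes were led by *Vcan* in 68 and 94 cells, *Fn1* in 59 and 99 and *Ncam1* in 40 and 95, with 0 of 7 tested higher in the autopod and 2 in the zeugopod, 1 of which reached 10% of cells in the zeugopod only, and 2 and 2 within NXT0143. Joint interzone genes were led by *Osr2* in 5 and 45 cells, *Gdf5* in 14 and 18 and *Erg* in 15 and 14, with 0 and 1 of 3 over all retained cells, and 1 and 0 within NXT0143. The gene higher in the zeugopod over all cells was *Osr2* (-1.68, and -0.89 within NXT0143), which reached 10% of cells in the zeugopod only. The gene higher in the autopod within NXT0143 was *Gdf5* (2.54). Prehypertrophic and bone genes were led by *Mef2c* in 27 and 15, *Pth1r* in 15 and 23 and *Ihh* in 1 and 2, with 1 and 0 of 2 in both comparisons.

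Of interstitial and tendon matrix genes, 8 of 11 tested were at least 2-fold higher in the zeugopod and 0 in the autopod, and 7 and 0 within NXT0143. Of the 8, 4 reached 10% of cells in the zeugopod only, and so were tested through the tissue where they were high. *Col1a1* was detected in 64.5% of autopod and 97.6% of zeugopod cells (log2 difference -4.39), *Col1a2* in 67.1% and 95.1% (-2.58) and *Col3a1* in 34.2% and 82.9% (-3.88). Within NXT0143 these differences were -3.72, -2.71 and -4.19, of the same sign, where *Col2a1* and *Col9a2* changed sign. *Col2a1* was found in 90.8% of the zeugopod cells with *Col1a1*, against 91.1% of all zeugopod cells. In the autopod it was found in 24 of 49 cells with *Col1a1* (49%), against 56.6% of all autopod cells. Reads of cartilage collagen and interstitial collagen thus occurred in the same cells, but no more often than the share of *Col2a1* in all cells.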

How the data were processed

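The authors mapped reads with bowtie2 and deposited a count table, the reads on 23165 genes in 225 cells. A table of normalized signal was deposited as well, with 10948 genes and 199 cells, scaled with scran 1.0.4 by spike-in size factors that had been centred per batch, and divided by gene length, and cells with such a column were taken as retained. Gene lengths were read from the floor of that signal, and for *Matn1* from GENCODE exons (2.001 kb). The spike-in rows were not used. Values were computed with python 3.11.15, numpy 2.4.6, pandas 2.3.3 and scipy 1.17.1, and drawn with matplotlib 3.10.9.

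Each tissue was treated as 1 pooled sample over its runs, since no embryo was named per cell in the labels, so no p-value or standard error was computed. The methods name both 8 embryos and 8 forelimbs of 4 littermates, and the labels 8 embryos. Intervals are Clopper-Pearson for shares. Correlations are Spearman on CPM. The members and lists were chosen with earlier results of these data known. Lists were chondrogenic regulators, other cartilage matrix, sulfate and chondroitin sulfate synthesis, condensation, joint interzone, prehypertrophic and bone, interstitial matrix and tendon, and markers of chondrogenic, muscle, tendon, epithelial, endothelial, blood and macrophage cells, autopod and zeugopod. Named were all members, *Sox9*, *Sox5*, *Sox6*, the 3 genes of each list found in most cells, the 10 genes most and 5 least like the members, and 4 tissue markers. Single markers of other cell types were named where a count rested on them. Alternatives were 1 or 10 reads, a normalized value of at least 5, thinning to 500000 reads with seed 42, single runs, pseudocounts of 0.1 and 10, CPM, other filters and normalized values for correlations. The scripts were tested on simulated data.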

Additional observations from a re-analysis of the deposited data

Results flagged for a closer look

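Of the 26 cells that were not retained, 6 had at least 5 reads of a cartilage matrix gene.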

How the results depend on the processing

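The share of cells with at least 3 of the genes was 64.7% in autopod NXT0143 alone (46.1% in all autopod cells) and 62.6% in the zeugopod at 1 read (47.2% at 5). The share of cells with the rarer gene that had the commoner was 83.1% in autopod NXT0143 alone (74.7% in all), and in the zeugopod 84.6% at 1 read and 84.1% at a normalized value of at least 5 (88.4% at 5 reads). Members at least 2-fold higher in the autopod numbered 1 with a pseudocount of 10 (2 with 1), where 1.06% of all genes were (3.45% with 1). Members at least 2-fold higher in the zeugopod numbered 4 with a pseudocount of 0.1, 1 with a pseudocount of 10, 4 with log2(CPM + 1) and 1 within NXT0143 (2 over all cells), where the shares of all genes were 11.6%, 2.92%, 11.6% and 6.29% (7.62% over all cells). Within NXT0143 alone *Col2a1* went from -1.54 to 0.80 and *Col9a2* from -1.66 to 0.98, and the cause was not tested. The median rank correlation of pairs among 6 genes in the zeugopod was 0.48 in all cells, 0.38 in NXT0142 alone and 0.56 in NXT0143 alone. With normalized values, 9 of the 10 genes most like the members kept a rank within 10 and *Fam101a* ranked 15. No paired analysis was possible because no embryo was named per cell in the labels, and sorting cells by sex-linked genes was not tried. Autopod NXT0143 held 17 cells.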

Other observations

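*Hoxd* genes vary between cells of the same tissue, and the cartilage genes were counted beside them. A *Hoxd* gene was taken as on if its normalized value reached both 5 and 5% of the strongest *Hoxd* gene in that cell. At least 3 cartilage matrix genes were found in 12 of 15 autopod cells without *Hoxd13* on (80%) and 23 of 61 with it (37.7%). The direction was the same in both runs, 4 of 6 against 20 of 53 in NXT0072 and 8 of 9 against 3 of 8 in NXT0143. *Col2a1* was detected in 14 of the 15 cells and 29 of the 61, and *Col9a1* in 9 and 39, so *Col9a1* did not share the difference. Median genes detected were 2800 and 3805, and whether depth went with the difference was not tested.

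In the autopod, at least 3 of the genes were found in 15 of 41 cells with *Hoxd11* on and 20 of 35 without, and in 18 of 33 with *Hoxd10* on and 17 of 43 without. In the zeugopod the shares were nearly equal, 40 of 84 with *Hoxd11* on and 18 of 39 without. Among combinations found in more than 5 cells, the lowest share was 1 of 8 autopod cells with *Hoxd13*, *Hoxd12*, *Hoxd11* and *Hoxd10* on, and the highest 7 of 9 with *Hoxd13* and *Hoxd10*.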
